A study of Mus musculus with 2 samples.

Results

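The 9 genes described here are markers of glia, the non-neuronal cells of the nervous system, and they were taken by gene symbol from the 45777 genes of a mouse expression table. Each of the 9 symbols matched 1 gene. RNA-seq of polyA RNA was available for 2 teratomas, tumours of mixed tissues that form when embryonic stem cells (ESCs) are placed under the skin of a mouse. The E14 teratoma library came from wild-type E14 cells, a mouse ESC line. The E14-Sox2TA/WT teratoma library came from E14 cells in which CRISPR/Cas9 editing had introduced T258A into 1 allele of Sox2, so that threonine, which can carry O-GlcNAc at this position, was replaced by alanine, while the other allele stayed wild type. The edited cells also differed in handling, which cannot be told apart from the mutation: they were transfected, sorted for GFP, grown out as clones from single cells and kept in the inhibitors known as 2i until these were withdrawn before use, whereas E14 cells were kept in serum and LIF. Both cell types were inoculated in Matrigel into BALB/c-nu mice, and teratomas were harvested at day 14. There is 1 library per group, so no difference below has a replicate check and no p-value was computed. The comparison is thus between 2 libraries, and whether each came from 1 tumour or several is not given in the sources used here. In bulk tissue, fewer cells of a type and less RNA per cell cannot be told apart, and RNA of the host mouse cannot be separated from that of the graft. The sample labels name the tissue as teratoma, although their extraction text speaks of an ESC line.

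Glia arise from the neural ectoderm after neurons have begun to form. Radial glia, the progenitors of the developing neural tube, carry the fatty acid binding protein Fabp7 and the glutamate transporter Slc1a3, and they give rise to neurons first and to glia later. Astrocytes take up transmitters and water and are known by Gfap, Aqp4 and S100b. Oligodendrocytes make the myelin of the central nervous system, and their lineage is set by the transcription factors Olig1 and Olig2, followed by the growth factor receptor Pdgfra in precursors and by myelin proteins such as Mbp in mature cells. Several of these genes are also used outside the nervous system, Pdgfra in mesenchyme and S100b in cartilage, fat and peripheral glia.

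Gene counts summed to 50529171 reads for E14 and 49030281 for E14-Sox2TA/WT. Levels are given as TPM, a share of all transcripts, which divides reads by transcript length and can therefore be compared between genes. Ratios are E14-Sox2TA/WT over E14, with 95% intervals by the Clopper-Pearson method, which cover counting error only. Sox2 itself had a TPM of 246 and 130, and the table does not separate its alleles. Log2 ratios were taken after adding 1 to both TPM values. Their median over the 18558 genes that reached a TPM of 1 was -0.06, against 0.11 on FPKM, the same reads scaled without the fixed sum. Mitochondrial genes took 5.17% of all TPM for E14 and 9.70% for E14-Sox2TA/WT.

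Of the 9 glial genes, 5 were more than 2-fold lower in the E14-Sox2TA/WT library (Olig1, Olig2, Mbp, Fabp7 and Slc1a3), 0 were more than 2-fold higher, and 4 lay within 2-fold (Gfap, Aqp4, S100b and Pdgfra). The rule was that of the study's methods, a fold change above 2 and a TPM that reached 10 in either library. All 9 genes passed the TPM filter, Olig2 and S100b through the E14 library alone. Among the 11578 genes that passed it, 18.7% were lower by the same rule and 10.8% were higher. In both directions the rule called more genes here than the study reported for its teratomas, so these shares are not the study's own. With FPKM the same table had 1655 lower and 1583 higher genes, against 2167 and 1253 with TPM, and 5 of the 9 glial genes were lower with either. The TPM of the 9 genes added up to 3208 for E14 and 967 for E14-Sox2TA/WT, and Fabp7 alone held 77.8% and 73.2% of it.

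**Figure D1:**
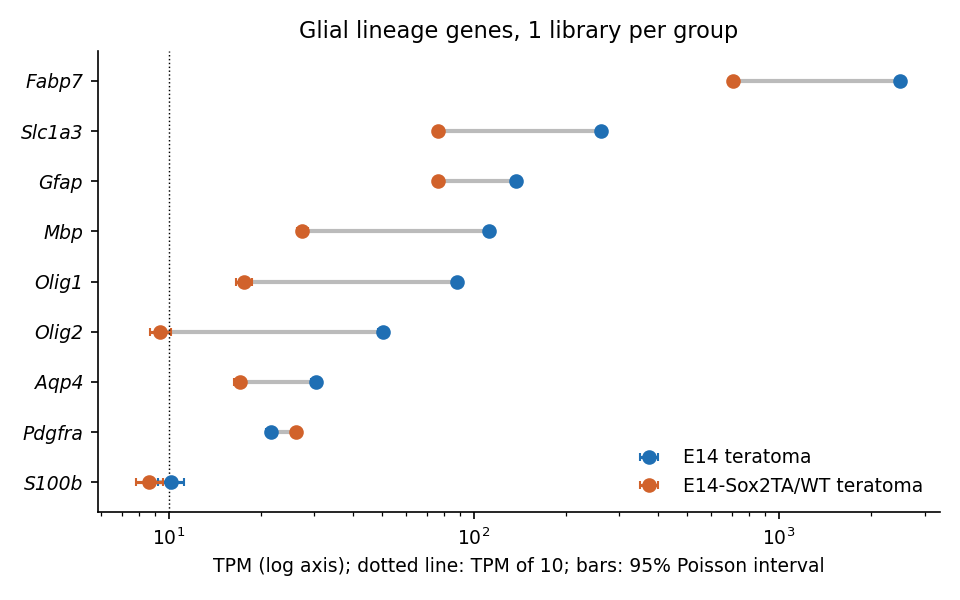
TPM of each glial gene (log axis) in the E14 teratoma library (blue) and the E14-Sox2TA/WT teratoma library (orange), 1 library per group, with 95% Poisson intervals of the reads. Pdgfra was the 1 gene of 9 that was higher in E14-Sox2TA/WT. The gap was widest for Olig2, at 50.2 and 9.38.

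Olig1 and Olig2 are neighbouring genes for bHLH transcription factors of the ventral neural tube, and they showed the lowest ratios of the 9. They lie on the plus strand of chromosome 16 of GRCm38, Olig2 from 91225550 to 91228677 and Olig1 from 91269769 to 91271939, with 41091 bases between them. Olig2, which is needed for motor neuron and oligodendrocyte progenitors, had 2944 reads (TPM 50.2) in E14 and 615 reads (TPM 9.38) in E14-Sox2TA/WT. It was 5.35-fold lower (4.90 to 5.85). Olig1, which acts later in oligodendrocyte maturation, had 4609 and 1027 reads and a TPM of 88.2 and 17.6, or 5.01-fold lower (4.68 to 5.37). Only 2.57% of the genes tested had a log2 ratio as low as that of Olig2, and 2.82% one as low as that of Olig1. The pair kept its proportion: Olig1 stood at 1.76 times the TPM of Olig2 in E14 and at 1.88 times in E14-Sox2TA/WT, and the interval of the change between these ratios, 0.956 to 1.19, included 1. Genes around them differed less. Of the 10 nearest genes with a TPM of at least 1, 5 on each side of Olig2, the lowest log2 ratio after Olig1 was -1.30, and the median was -0.09.

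The remaining genes of the oligodendrocyte lineage differed from each other. Mbp, the myelin basic protein that compacts the myelin sheath, had 7187 reads (TPM 112) in E14 and 2034 reads (TPM 27.4) in E14-Sox2TA/WT. It was 4.08-fold lower (3.89 to 4.29). The Mbp gene, on chromosome 18 from 82475091 to 82585637, is counted as 1 row over 17 RefSeq transcripts, which include the golli forms that are made outside myelinating cells, and these were not separated here. The mean transcript length implied by its reads and FPKM was 3.77% longer in the E14-Sox2TA/WT library, whereas for the other 8 genes it differed by 0.268% to 0.570%. Pdgfra, the receptor through which PDGF maintains oligodendrocyte precursors, went the other way. On chromosome 5 from 75151322 to 75198206, it had 3393 and 4589 reads and a TPM of 21.6 and 26.1, a ratio of 1.21 (1.16 to 1.26). Relative to Olig2 in the same library, Pdgfra stood at 0.430 in E14 and at 2.78 in E14-Sox2TA/WT by TPM, 6.47 times more (5.86 to 7.13, from the Poisson error of the 4 counts).

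Pdgfra is also a general receptor of mesenchyme, and markers of that tissue moved in the same direction. The 13 genes of a mesenchyme list, Pdgfra among them, all had a ratio above 1, their median on the log2 scale was 0.93, and their TPM added up to 759 for E14 and 1779 for E14-Sox2TA/WT. By the 2-fold rule, 5 of the 12 that could be tested were higher and 0 lower. Of the 5, 1 reached a TPM of 10 in E14-Sox2TA/WT alone, Thy1, at 9.80 and 56.2. Col3a1, a fibrillar collagen, had a TPM of 172 and 472, and the proteoglycan gene Dcn 232 and 382. The part of mesenchyme in the level of Pdgfra was not tested. All 6 genes of the PDGF system were within 2-fold or below a TPM of 10 in both libraries. Its ligand Pdgfa had a TPM of 22.7 and 43.6, Pdgfb 5.54 and 7.21, Pdgfc 16.7 and 18.9 and Pdgfd 2.55 and 3.57. The related receptor Pdgfrb, typical of pericytes and fibroblasts, had 15.7 and 17.1.

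Both radial glia genes were lower by similar folds. Fabp7, also known as brain lipid binding protein, was by far the most abundant of the 9. It lies on chromosome 10 from 57784923 to 57788450 and had 45785 and 14500 reads, with a TPM of 2497 and 708. It was 3.53-fold lower (3.46 to 3.59). Slc1a3, known as GLAST, lies on chromosome 15 from 8634124 to 8710807, on the minus strand, and had 26468 and 8649 reads and a TPM of 262 and 76.5. It was 3.42-fold lower (3.34 to 3.50). Chromosome 15 as a whole went the other way, with a median log2 ratio of 0.35 over 742 genes, so that Slc1a3 stood 2.11 below its chromosome. The ratio of Fabp7 to Slc1a3 was 9.55 and 9.25 within the respective libraries, and the interval of the change, 0.940 to 0.999, ended just below 1.

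**Figure D2:**
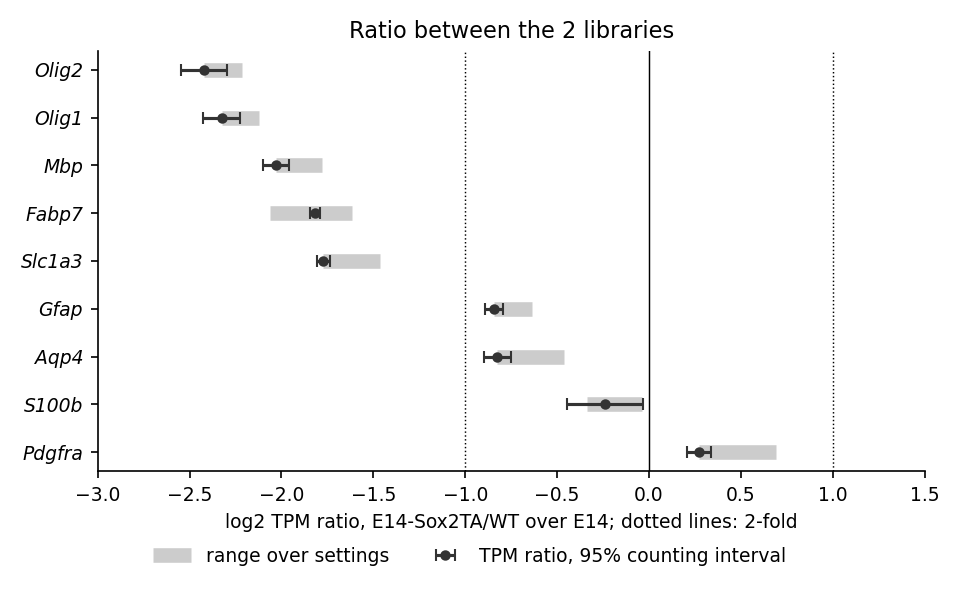
log2 of the TPM ratio for each glial gene, with no value added to the TPM (points, with 95% counting intervals), and the lowest and highest ratio over the alternative scalings (grey bars). The 5 lower genes stay past the dotted 2-fold line under every scaling shown, and the other 4 stay inside it.

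Sox2 binds DNA, and the promoters of these genes were searched for the core letters of its motif. RefSeq promoter sequences of GRCm38.p6 were matched for 6 of the 9 genes (Olig2, Fabp7, Slc1a3, Gfap, S100b and Pdgfra). The letters ACAAT, the core of motifs bound by Sox factors, and their reverse complement ATTGT were searched in the 250 bases before each start. For Pdgfra this window, chr5:75152001-75152250, lay inside the gene as positioned above, which starts at 75151322. The bases before that start were thus not searched. The letters occurred in 3 of the 6, once each: 67 bases before the start of Olig2, 198 before Fabp7 and 112 before Slc1a3, counted to the first base of the match. All 3 genes are among those that were lower. Their sequences are printed because they hold the match, which capitals mark. Each runs 5′ to 3′ on the strand of the gene and stops before the first start annotated in RefSeq or GENCODE, and for Olig2, whose match lies between these starts, a window of 30 bases is added. Windows are chr10:57784673-57784880 for Fabp7 (plus strand), chr15:8710808-8711057 for Slc1a3 (minus strand), chr16:91225300-91225456 for Olig2 (plus strand) and chr16:91225471-91225500 for the added window.
Fabp7: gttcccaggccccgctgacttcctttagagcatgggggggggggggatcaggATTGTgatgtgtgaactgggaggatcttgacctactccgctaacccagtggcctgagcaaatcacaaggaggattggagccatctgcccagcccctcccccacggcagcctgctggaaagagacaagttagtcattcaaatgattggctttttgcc
Slc1a3: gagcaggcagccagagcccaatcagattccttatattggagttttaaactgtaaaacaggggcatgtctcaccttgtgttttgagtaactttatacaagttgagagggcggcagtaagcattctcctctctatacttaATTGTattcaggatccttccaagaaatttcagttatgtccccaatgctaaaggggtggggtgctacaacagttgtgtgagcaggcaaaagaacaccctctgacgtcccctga
Olig2, upstream: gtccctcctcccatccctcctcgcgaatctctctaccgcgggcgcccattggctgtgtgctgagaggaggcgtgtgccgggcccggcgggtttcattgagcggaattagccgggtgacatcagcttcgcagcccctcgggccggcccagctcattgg
Olig2, match: caggaaaagcacATTGTtcccgccccccgc

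The same 5 letters are common. They occurred in 27.7% of the 32851 RefSeq promoters of this length. Among promoters of tested genes, they were in 18.8% of those of lower genes, 17.7% of those of genes within 2-fold and 19.6% of those of higher genes, and nothing was read from them about binding. The E-box CAGCTG, a palindrome bound by bHLH factors, occurred in 0 of the 6 glial promoters and in 13.0% of all promoters.

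Gfap, Aqp4 and S100b differed less between the libraries. Gfap, the intermediate filament of astrocytes, lies on chromosome 11 from 102887336 to 102897200 and had 8942 and 5584 reads, with a TPM of 137 and 76.4. Its level was 1.79-fold lower (1.73 to 1.85), short of the 2-fold rule. Aqp4, the water channel of astrocyte end-feet, lies on chromosome 18 from 15389394 to 15410982 and had 3777 and 2385 reads, with a TPM of 30.3 and 17.1, or 1.77-fold lower (1.68 to 1.87). Although the 2 genes differ in level, the ratio of Aqp4 to Gfap was 0.221 and 0.224, and the interval of the change, 0.952 to 1.08, included 1. S100b, a calcium-binding protein of astrocytes, lies on chromosome 10 from 76253836 to 76261319 and was the lowest of the 9, with 408 and 386 reads and a TPM of 10.2 and 8.64. Its ratio was 0.847 (0.735 to 0.976) on TPM and 0.972 on FPKM. In the GENCODE models, though not at the RefSeq positions given here, S100b overlaps 1731 bases of Dip2a, which lies on the opposite strand and had a TPM of 14.9 and 8.79. The sources used here do not say if counting was stranded, so reads of the 2 genes may be mixed there, and the same holds for Olig1, Gfap, Mbp, Aqp4 and Pdgfra, which GENCODE overlaps with noncoding genes or a pseudogene of the opposite strand.

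On TPM, the 9 genes thus fell into steps. The Olig pair was about 5-fold lower, at 5.35 and 5.01, Mbp 4.08-fold, the radial glia pair 3.53-fold and 3.42-fold, and Gfap and Aqp4 1.79-fold and 1.77-fold, while S100b had a ratio of 0.847 and Pdgfra one of 1.21. Between steps, ratios within a library moved beyond counting error, and a single scaling factor per library leaves such ratios as they are. Centring on genes of similar length, an alternative chosen after seeing the data, does not: the ratio of Aqp4 to Gfap then changed by 1.27 times and that of Fabp7 to Slc1a3 by 0.661 times, so these 2 steps depend on it, whereas that of Olig1 to Olig2 changed by 1.01 times. With this centring the order of the steps changed too, as Fabp7 had a ratio of 0.240, below Mbp at 0.256. On TPM, Slc1a3 stood at 1.91 times Gfap in E14 and at 1.002 times in E14-Sox2TA/WT, a change of 1.91-fold (1.83 to 1.99). Fabp7 relative to Gfap changed from 18.2 to 9.27, and Olig2 relative to Gfap from 0.366 to 0.123, 2.98-fold lower (2.72 to 3.28). Mbp relative to Olig2 went from 2.23 to 2.92. Relative to Sox2, the edited gene and itself a radial glia and astrocyte gene, Gfap was at 0.558 and 0.587, a change of 1.05 times (1.01 to 1.10), whereas Fabp7 was at 10.2 and 5.44. These pairs were chosen after the values were seen.

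**Figure D3:**
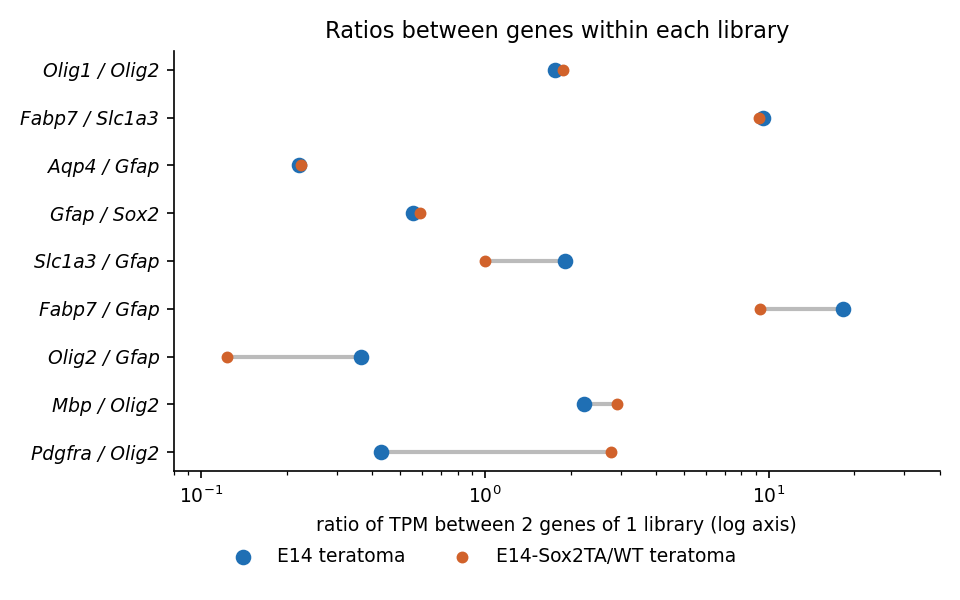
Ratio of TPM between 2 genes of the same library (log axis) in the E14 (blue) and E14-Sox2TA/WT (orange) teratoma libraries. The 4 upper pairs, such as Aqp4 to Gfap at 0.221 and 0.224, nearly coincide, while Olig2 to Gfap went from 0.366 to 0.123 and Pdgfra to Olig2 from 0.430 to 2.78.

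The steps also changed the order of the levels. In the E14 library the order was Fabp7, Slc1a3, Gfap, Mbp, Olig1, Olig2, Aqp4, Pdgfra and S100b, and the counting intervals of neighbours did not overlap. In the E14-Sox2TA/WT library 4 neighbouring pairs had overlapping intervals. Slc1a3 and Gfap stood at 76.5 (74.9 to 78.2) and 76.4 (74.4 to 78.4), Mbp and Pdgfra at 27.4 (26.2 to 28.6) and 26.1 (25.3 to 26.9), Olig1 and Aqp4 at 17.6 (16.5 to 18.7) and 17.1 (16.4 to 17.8), and Olig2 and S100b at 9.38 (8.65 to 10.2) and 8.64 (7.80 to 9.55).

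Neurons share their progenitors with glia, and neuronal genes were lower too. All 10 genes of a neuron list were lower by the 2-fold rule, 1 of them, Rbfox3, through E14 alone, with a median log2 ratio of -2.24. The tubulin gene Tubb3 had a TPM of 1722 and 170, and the growth cone protein gene Stmn2 451 and 121. Their geometric mean TPM was 120.1 for E14 and 21.8 for E14-Sox2TA/WT. Set against this mean, Olig2 was at 0.418 and 0.431 and Olig1 at 0.735 and 0.808. The Olig genes were thus lower in nearly the same proportion as the mean. Single neuronal genes spread widely around it, from 2.27-fold lower for Elavl4 to 14.6-fold lower for Mapt, both named after their values were seen. Slc1a3, at 2.18 and 3.51, and Fabp7, at 20.8 and 32.5, were higher relative to the neuronal mean in the E14-Sox2TA/WT library. Gfap went from 1.14 to 3.51 and Aqp4 from 0.252 to 0.784, a little over 3-fold higher relative to the neuronal mean. Whether this reflects another balance of cells or other levels per cell was not tested.

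Other genes of each glial type, from lists assembled by hand, were read beside the 9. In the oligodendrocyte precursor list, 11 of the 15 genes that could be tested were lower and 0 higher, and the median of the log2 ratio was -2.02 over the 19 that reached a TPM of 1. Without the 3 genes already described, 9 of 12 were lower. Of the 11, 6 reached a TPM of 10 in E14 alone, so that the filter favoured a lower value for them. Ptprz1, a receptor phosphatase of precursors and radial glia, had a TPM of 115 and 20.03, and the matrix proteoglycans Ncan 106 and 18.2 and Bcan 72.8 and 11.3. Ncan and Bcan are used by neurons or astrocytes as well. Other genes of the list, named after their values were seen, differed less. Of the 19, 3 had a ratio above 1: Pdgfra, Tmem100, at a TPM of 12.3 and 18.4, and Tcf7l2, at 12.3 and 14.2. C1ql1, at 11.3 and 8.15, lay within 2-fold, and Cspg4, at 3.02 and 2.04, did not reach a TPM of 10.

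In the myelin list, 5 of 9 tested genes were lower and 2 higher, with a median of -0.60 over 16 genes, and 2 of the 5 and both higher genes reached a TPM of 10 only in the library where they were high. Cnp, an enzyme of early myelinating cells, had a TPM of 107 and 36.3, Bcas1 43.9 and 19.96, and the homeobox factor Nkx6-2 36.1 and 6.57. The 2 higher genes, named after their values were seen, were Mal, at 8.16 and 20.8, and Tspan2, at 6.09 and 12.6. Mal also belongs to the apical membranes of epithelia. Genes of mature myelin were low and went both ways, and they too were named after their values were seen. Mag had 458 and 156 reads, Mog 28 and 7 reads, Mobp 90 and 254 reads, Aspa 68 and 184 reads and Opalin 0 and 10 reads.

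In the astrocyte list, 13 of 19 tested genes were lower, 3 of them through E14 alone, and 0 higher, with a median of -1.38 over 22 genes. Apart from the 4 genes described above, 12 of 15 were lower. The largest differences were in Aldoc, a glycolytic enzyme, at a TPM of 147 and 24.3, and in Slc1a2, the second glutamate transporter of astrocytes, at 23.4 and 4.32. Sparcl1 had 549 and 161 and Clu 247 and 117. Glul, the glutamine synthetase that completes glutamate uptake, had 217 and 190 and lay within 2-fold. This enzyme is also made in liver and other tissues. The 1 gene of the 22 with a ratio above 1 was Gja1, at 124 and 166, within 2-fold. Gja1 was named after its values were seen. The log2 ratios of Gfap and Aqp4, at -0.83 and -0.79, lay above the median of the list, and that of Slc1a3, at -1.76, lay below it.

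In the radial glia list, 9 of 18 tested genes were lower, 1 of them, Nr2e1, through E14 alone, and 0 higher. The median was -0.98 over 20 genes. Of these, 3 had a ratio above 1: Hopx, at a TPM of 45.4 and 64.3, Prom1, at 58.1 and 73.2, and Gli3, at 5.31 and 8.32. These 3 were named after their values were seen. Nr2e1, the orphan receptor of forebrain progenitors, had a TPM of 13.98 and 0.375, with 1091 and 33 reads. It was 37.3-fold lower (26.4 to 54.4). Ttyh1 was at 226 and 34.4, 6.56-fold lower (6.30 to 6.85). The filament gene Vim, shared with mesenchyme, had 1530 and 914, and Dbi had 993 and 521, both within 2-fold.

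**Figure D4:**
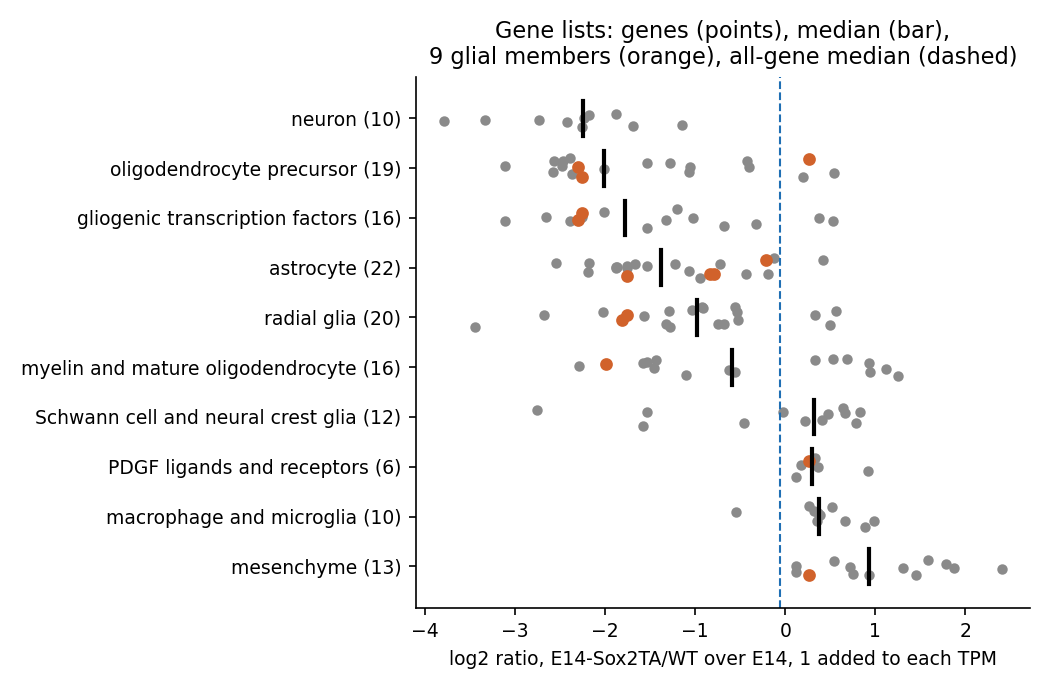
log2 ratio of every gene that reached a TPM of 1, by gene list (number of genes in parentheses). Black bars are medians, orange points the 9 glial genes and the dashed line the median of all genes, -0.06. Medians of the neuron and oligodendrocyte precursor lists were -2.24 and -2.02, and that of mesenchyme 0.93.

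Of the transcription factors that direct progenitors to a glial fate, 11 of 15 tested were lower and 0 higher, or 9 of 13 without Olig1 and Olig2. Of the 11, 7 reached a TPM of 10 in E14 alone. Sox8, Sox9 and Sox10, SoxE factors that act in glia, had a TPM of 31.4 and 6.99, 44.1 and 16.9, and 21.6 and 6.81. Nkx2-2 and Nkx6-1, which pattern the ventral neural tube beside Olig2, had 36.3 and 6.11, and 21.8 and 8.95. Within the nuclear factor I family, which switches progenitors from neurons to astrocytes, Nfix was at 63.2 and 9.15, Nfib at 37.8 and 18.1 and Nfia at 13.4 and 7.9998, the last within 2-fold. Zbtb20 had 6.85 and 0.634 and did not reach a TPM of 10. Stat3, which activates Gfap, had 42.1 and 33.3. Myrf, the regulator of myelin genes, was at 7.03 and 10.6 and Id3 at 284 and 368, and both are active in many other tissues.

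Peripheral glia share Mbp and S100b with central glia, and few genes of their list reached a TPM of 10. In the list of Schwann cell and neural crest glia, 12 of 15 genes reached a TPM of 1, 3 of 5 tested genes were lower, Sox10 and L1cam among them, each through a TPM of 10 in E14 alone, and 0 higher, and the median was 0.31. L1cam, at a TPM of 50.2 and 6.56, is also an adhesion molecule of axons. Pmp22, at 39.4 and 52.6, is made by many other cells. Cdh19, a cadherin of Schwann cell precursors, had 22 and 24 reads and was named after its values were seen. Of the 12 genes, 7 had a ratio above 1 and 5 one below it. Beside Pmp22, the 7 were Erbb3, with 748 and 1558 reads, Ngfr, with 568 and 755, and Prx, with 328 and 652. Foxd3, with 81 and 150, Egr2, with 50 and 134, and Gfra3, with 18 and 77, were the rest. These too were named after their values were seen.

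Markers of other cells, some of which make S100b, went several ways. The cartilage list had a median of -0.05 over 9 genes and a summed TPM of 144 and 138, with Col2a1 at 58.0 and 74.8 and 1 of 4 tested genes lower, Sox9, which is also a glial gene. Cartilage genes at low levels went both ways, and they were named after their values were seen. Among the higher ones, Acan had 47 and 207 reads, Comp 11 and 49 reads and Chad 23 and 230 reads. Matn1 had 0 and 46 reads and Snorc 0 and 9 reads. Slightly lower on TPM were Col11a2, at 5.28 and 4.59, Cnmd, at 3.74 and 3.09, and Hapln1, at 1.80 and 1.52. The counting intervals of the ratios of Cnmd and Hapln1 included 1. The adipocyte list had a summed TPM of 27.6 and 81.7, with a median of 1.51 over 5 genes. Its most abundant genes were Fabp4, at 26.5 and 71.5 and the 1 gene of the list that could be tested, and Pparg, at 0.9004 and 2.92. The melanocyte list summed to a TPM of 3.78 and 9.29, with Mitf at 2.12 and 2.62 and Mlana at 0 and 4.49. Most of the gap between the sums was thus Mlana, and 0 genes of the list could be tested. The others, named after their values were seen, had few reads and went both ways. Pmel had 82 and 115 reads, Tyrp1 16 and 11, Dct 0 and 6 and Tyr 4 and 0. The macrophage and microglia list was at a median of 0.38, with 0 of 7 tested genes past 2-fold, and C1qa at 150 and 215 and C1qc at 164 and 212. The part of these cells in the level of S100b was not tested.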

How the data were processed

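For each library, the authors made 3 values per gene. The deposited counts are whole numbers without normalization, the deposited FPKM divides them by transcript length and depth, and the deposited TPM is that value rescaled to a fixed sum. Per the labels, the submitters' processing notes name bcl2fastq 2.20.0, Trimmomatic, HISAT2 2.1.0 and StringTie 2.1.3b, and the builds hg19 and mm10. The counting mode and its use of strand are not given in the sources used here.

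Positions came from a RefSeq table of GRCm38.p6, the same build, which matched 45675 of 45777 identifiers, and strands and overlaps from GENCODE. With 1 library per group, TPM ratios were given with Clopper-Pearson intervals and no test was run. The members and the 13 other lists were chosen with earlier results of these data known. Genes named were the 9 members, in each glial list the 3 most abundant and the 2 that differed most, all glial fate and PDGF genes, and 2 from each list of other cells, and some genes that this rule names are not reported here. Scripts were tested on simulated data. The software was scipy 1.17.1 and pandas 2.3.3 in Python 3.11.15, and edgeR 4.0.16 in R 4.3.3 for TMM factors only. Alternatives were other scalings, filters, folds and pseudocounts.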

Additional observations from a re-analysis of the deposited data

How the results depend on the processing

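No paired analysis was possible because each group holds 1 library, and for the same reason no library could be left out. Of 169 alternative values of the counts of members and the list medians, 165 stayed within 1.5 times the count or within the order-statistic interval of the median. For the shortest lists this interval is the whole range of the genes, as with the 4 oligodendrocyte members, -2.30 to 0.26. Staying within it is then a weak check. Of the 147 medians among the 169 values, 8 had the other sign, and these 8 still counted among the 165. The cartilage median, -0.05, lay between 0.01 and 0.18 under 7 alternatives, and the Schwann cell median, 0.31, was -1.53 where a TPM of 10 was required. The other 4 were the adipocyte median, at 3.44 with a pseudocount of 0.1, 0.28 with 10 and 1.04 on FPKM, and the melanocyte median, at 0.067 with a pseudocount of 10. Both lists hold few genes at low TPM, and the cause was not tested. The 5 lower members stayed 5 under each alternative except a fold change above 1.5, which gave 7. All genes lower and higher numbered 6015 and 9156 with no filter, 3508 and 3585 when a TPM of 1 sufficed, 3742 and 2109 above 1.5-fold and 1015 and 663 above 3-fold. The lower genes were 20.6% of 29147 with no filter and 18.9% of 18558 at a TPM of 1. Of the 11578 at a TPM of 10, they were 32.3% above 1.5-fold and 8.77% above 3-fold. Of 63 alternative ratios of single members, 43 left their counting interval. Ratios ran from 0.187 to 0.215 for Olig2, 0.558 to 0.644 for Gfap, 0.791 to 0.975 for S100b and 1.21 to 1.61 for Pdgfra. Centring on genes of similar length, chosen after seeing the data, gave the lowest ratio of Fabp7, 0.240, and the highest of Aqp4, 0.726, and of Pdgfra.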

Other observations

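The genes around the other members were read in the same way as those around the Olig genes, with 5 genes of a TPM of at least 1 on each side. The log2 ratio of Mbp, Slc1a3 and Fabp7 lay below that of all 10 neighbours, whose medians were -0.27, 0.44 and 0.15. Gfap and Aqp4 each had 1 neighbour with a lower ratio, Adam11 and Cdh2, beside medians of 0.16 and 0.66. S100b had 2 such neighbours, with Prmt2 the lowest at -1.56, beside a median of 0.41. Pdgfra stood above 7 of its 10 neighbours, whose median was -0.39. Gsx2, a homeobox factor of forebrain progenitors close to Pdgfra, had the lowest log2 ratio there, -1.38, at a TPM of 2.84 and 0.477. The receptor genes Kit and Kdr beside it had 25.3 and 17.7, and 7.98 and 6.01. These neighbours were named after their values were seen.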
